A study of Mus musculus with 12 samples.

Results

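The genes described here are 40 mouse genes of the integrated stress response, measured by RNA sequencing in MC38-idAdpgkG cells. They were taken as a list of symbols: eIF2alpha kinases and phosphatase subunits, ATF4 with its partner transcription factors, ATF4 target genes, enzymes of serine and one-carbon metabolism, and amino acid transporters. All 40 were found among the 27179 gene identifiers of the count table, and all 40 were among the 12910 genes with enough reads to be tested. MC38 is a C57BL/6 mouse line labelled as colon carcinoma. The cells carry a stably transfected construct for the Adpgk neoantigen R304M fused to turboGFP, which doxycycline switches on and dTAG-13, a small-molecule degrader, marks for proteasomal removal. Every group was kept in 20 ng/mL mouse interferon-gamma for 51 h, the control included. The control group received nothing else, the doxycycline group also received 1 µg/mL doxycycline for the 51 h, the dTAG-13 group received 1 µM dTAG-13 for 3 h after 48 h, and the fourth group received both compounds on those schedules. Each group was 1 treated culture of the same engineered line, sequenced as 3 technical replicates (12 libraries in all). The p-values therefore measure only the spread between libraries of 1 culture, and a difference between cultures cannot be told apart from a difference between treatments.

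The integrated stress response starts with kinases that phosphorylate the translation factor eIF2alpha when amino acids or heme run short, when unfolded proteins build up in the endoplasmic reticulum, or when mitochondria are impaired. General translation then falls while the mRNA of the transcription factor ATF4 is translated better, because upstream reading frames in its leader are bypassed. ATF4 turns on genes for amino acid uptake and synthesis, for serine and one-carbon metabolism and for feedback on the pathway itself, routes that tumour cells use to supply growth. Much of ATF4's own regulation is translational, so its mRNA level is only part of its activity. Transcripts of its target genes are the usual readout in RNA sequencing.

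ATF4 binds DNA together with C/EBP partners at composite elements that contain TGATGNAA. That word and the related TGATGCAA were searched on both strands of the RefSeq GRCm38.p6 windows that run from 250 bases before to 50 bases after each annotated start. Windows were found for 34 of the 40 genes (42 windows in all), and Aldh1l2, Cth, Eif4ebp1, Ppp1r15b, Slc1a5 and Slc7a5 had none in the table. TGATGNAA was present in 8 of the 42 windows (19%), against 1304 of 32851 windows of all genes (3.97%). TGATGCAA, which is one form of the same word, was present in 6 of the 42 (14.3%), against 0.895% of all windows. The endoplasmic reticulum stress element ERSE was in 0 of the 42 windows and in 0.119% of all. The 8 stretches are shown because they hold the word that defines the ATF4 element, with the word or its reverse complement in capitals, each written 5′ to 3′ on the strand of its gene. A match is a description of the letters and was not tested for binding in these cells.
Chac1, chr2:119351023-119351082, plus strand: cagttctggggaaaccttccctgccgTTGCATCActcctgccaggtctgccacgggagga
Trib3, chr2:152344028-152344057, minus strand: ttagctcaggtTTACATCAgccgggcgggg
Asns, chr6:7693210-7693258, minus strand: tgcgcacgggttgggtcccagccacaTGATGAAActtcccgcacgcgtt
Fgf21, chr7:45615596-45615655, minus strand: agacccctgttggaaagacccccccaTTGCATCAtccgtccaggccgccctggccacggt
Nupr1, chr7:126625547-126625606, minus strand: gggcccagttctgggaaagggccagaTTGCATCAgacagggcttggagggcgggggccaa
Pycr1, chr11:120643818-120643877, minus strand: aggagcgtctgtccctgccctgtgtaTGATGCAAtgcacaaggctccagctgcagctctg
Vldlr, chr19:27216794-27216853, plus strand: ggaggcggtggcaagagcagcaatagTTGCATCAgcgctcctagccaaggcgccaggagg
Got1, chr19:43524674-43524733, minus strand: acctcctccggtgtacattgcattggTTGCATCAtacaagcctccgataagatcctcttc
In Asns, the asparagine synthetase gene, the word starts 23 bases before the annotated start. In Trib3 it lies 14 bases after the start, and in the other 6 it lies between 102 and 200 bases before one. The Vldlr stretch belongs to an alternative start of that gene.

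The libraries held 22165538 to 32809573 counted reads. Adpgk, which the construct also encodes, checked the doxycycline labels but not those of dTAG-13, which acts on the protein. It stood at 160.5 ± 2.49 CPM (reads scaled to a common library total; SD, n = 3) in control and 181 ± 4.18 CPM with dTAG-13, against 1338 ± 20.1 CPM with doxycycline and 1369 ± 15.7 CPM with both. Epithelial markers were near 0: the 6 listed genes summed to 0.0891 to 0.745 CPM and Epcam had 0 reads in the 12 libraries, although the cells are labelled as colon carcinoma. The 5 leukocyte markers summed to at most 0.1 CPM. The mesenchymal genes Vim, Fn1 and Zeb1 summed to 2304 to 2366 CPM in control, 2075 to 2092 CPM with doxycycline, 1666 to 1686 CPM with dTAG-13 and 1447 to 1490 CPM with both. With doxycycline Vim and Fn1 went down (log2 fold changes -0.21 and -0.11) and Zeb1 went up (0.14, or 0.085 corrected for length and GC content). Of the 4 fibroblast genes, Dcn and Pdgfra stood at 140.5 to 205.1 CPM, and Col1a1 and Col1a2 at no more than 0.351 CPM. The part of these genes in the results below was not tested. In these bulk libraries fewer cells with a transcript and less of it per cell cannot be told apart. Genes with short transcripts moved up with dTAG-13 and genes with long ones moved down. In dTAG-13 against control the median log2 fold change was 0.201 for the eighth of genes with exons under 1970 bp and -0.228 for the eighth above 9231 bp. In doxycycline plus dTAG-13 against doxycycline the same medians were 0.326 and -0.326. The part of this trend in the changes below was not tested, so a value corrected for length and GC content is given beside the values printed below where it ends a call, turns a direction or moves a called value by over 1.5 times.

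In control cells the 40 genes spanned a wide range of levels. The median of their mean levels over the 12 libraries was 201 CPM, against 30.9 CPM for all genes tested. Per kilobase of exon, the highest was Psat1, which makes phosphoserine in the serine pathway, at 278 ± 2.06 CPM per kb (SD, n = 3). Atf4 followed at 265 ± 3.61 CPM per kb, then Trib3, a pseudokinase that feeds back on ATF4, at 240 ± 2.31 CPM per kb, and the large neutral amino acid transporter Slc7a5 at 227 ± 1.07 CPM per kb. Each of these stood above the next in all 3 control libraries. Further down, Shmt2 and Asns (176 CPM per kb each) overlapped, as did Ppp1r15a with Cebpb and Ddit3 with Chac1. The eIF2alpha kinase genes were near the bottom: Eif2ak1 (HRI) stood at 10.1 ± 0.272, Eif2ak4 (GCN2) at 7.64 ± 0.242 and Eif2ak3 (PERK) at 3.57 ± 0.0482 CPM per kb. Only the hormone genes Gdf15 and Fgf21 lay lower, at 0.14 ± 0.0948 and 0.0932 ± 0.0241 CPM per kb, and these 2 overlapped. The remaining 38 averaged at least 1 CPM.

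**Figure D1:**
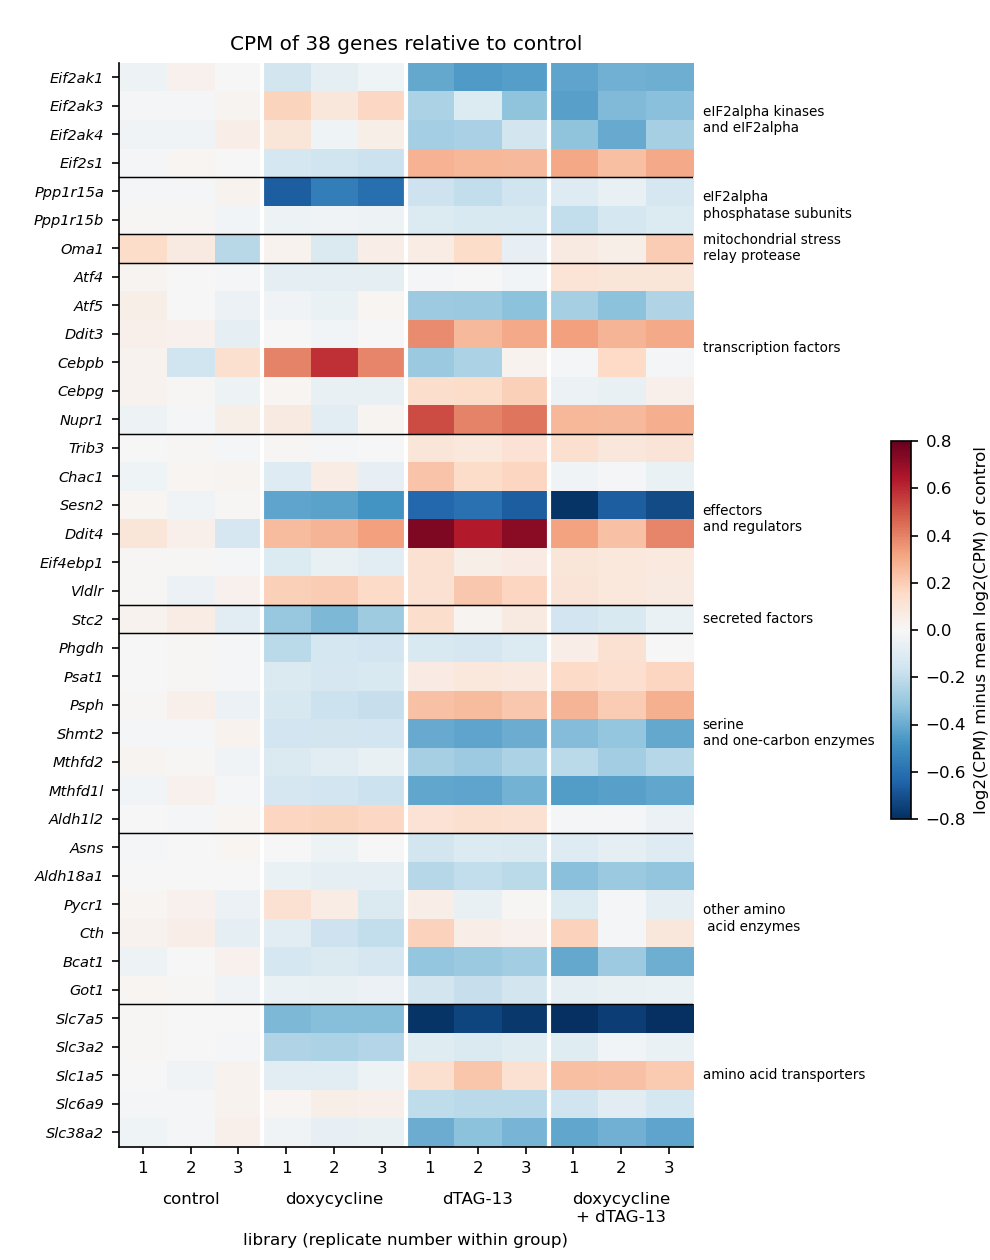
Each row is 1 of the 38 integrated stress response genes averaging 1 CPM or more and each column 1 of the 12 libraries; colour gives the log2 CPM of the library minus the gene's mean log2 CPM in control, and rows are grouped by role. Slc7a5, Sesn2 and Ddit4 show the deepest contrasts, with 0.79, 0.72 and 0.70 on the log2 scale between the highest and the lowest group mean.

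A gene is called here when its adjusted p in edgeR's quasi-likelihood test was below 0.05 after Benjamini-Hochberg adjustment over all 12910 genes. With doxycycline against control, 22 of the 40 genes were called (5 higher, 17 lower), which is 55.0%, against 33.5% of all genes tested. The lower calls came to 17 of 40, with 18.7% of all genes lower, and the higher calls to 5 of 40, with 14.8% of all genes higher. The median log2 fold change of the 40 was -0.06, against -0.01 over all genes. With dTAG-13 against control, 33 of 40 were called (14 higher, 19 lower) against 62.1% of all genes (30.0% higher, 32.1% lower). With dTAG-13 added on top of doxycycline, 33 of 40 were again called (15 higher, 18 lower) against 64.1% of all genes (30.7% higher, 33.4% lower). Doxycycline among dTAG-13-treated cells gave 15 calls (6 higher, 9 lower) against 20.4% of all genes (10.7% higher, 9.64% lower). The median log2 fold changes of the 40 in these 3 comparisons were -0.057, -0.002 and 0, against 0.019, 0.003 and -0.001 over all genes. For doxycycline among dTAG-13-treated cells, the 8 largest called changes of at least 1 CPM follow, with log2 fold change and adjusted p. Lower were Ddit4 (-0.385, 0.00211), Chac1 (-0.216, 3.8e-06), Stc2 (-0.185, 0.000797), Cebpg (-0.179, 2.01e-05), Nupr1 (-0.178, 0.00195) and Aldh1l2 (-0.145, 2.59e-06). Higher were Phgdh (0.181, 1.08e-06) and Atf4 (0.113, 2.32e-05). The comparisons share groups and are not independent of each other.

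Most of these changes were small. Only 2 genes were called and at least 1.5-fold apart with doxycycline (Fgf21 higher, Ppp1r15a lower), against 2.25% of all genes. With dTAG-13 alone there were 4 (Fgf21 and Ddit4 higher, Slc7a5 and Sesn2 lower), against 8.85% of all genes. Fgf21 averaged below 1 CPM, with 2 to 3 reads per library in control and 16 to 22 with dTAG-13. It passed the filter on its higher libraries, and with only control and doxycycline in the filter it was not tested. Adding dTAG-13 to doxycycline gave 1 (Gdf15, higher), against 9.23% of all genes. Gdf15 also averaged below 1 CPM, with 2 to 4 reads per library with doxycycline and 6 to 11 with both. With only these groups in the filter it was not tested. Doxycycline among dTAG-13-treated cells gave 0, against 1.49% of all genes, and DESeq2 also gave 0; the largest change there was -0.54 in Fgf21, which did not pass the test. The effects of scaling were as large as many of these changes. When counts were divided by library totals alone, without TMM factors, the higher and lower calls among the 40 became 7 and 12 with doxycycline, 17 and 14 for dTAG-13 against control, 15 and 18 on adding dTAG-13 to doxycycline, and 3 and 14 with doxycycline among dTAG-13-treated cells. The split over all genes also moved, from 1917 higher and 2414 lower to 2546 and 1607 with doxycycline, and from 3877 and 4144 to 5256 and 3115 with dTAG-13. It moved from 3957 and 4316 to 4218 and 4076 on adding dTAG-13 to doxycycline, and from 1386 and 1244 to 926 and 2132 in the last comparison. That scaling moved the median of all genes in dTAG-13 against control from 0.019 to 0.11. After correction for length and GC content, the 40 genes gave 24 calls with doxycycline (38.7% of the genes with a corrected test were called), 31 with dTAG-13 (58.1%), 28 with dTAG-13 on top of doxycycline (56.8%) and 14 with doxycycline among dTAG-13-treated cells (20.8%).

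**Figure D2:**
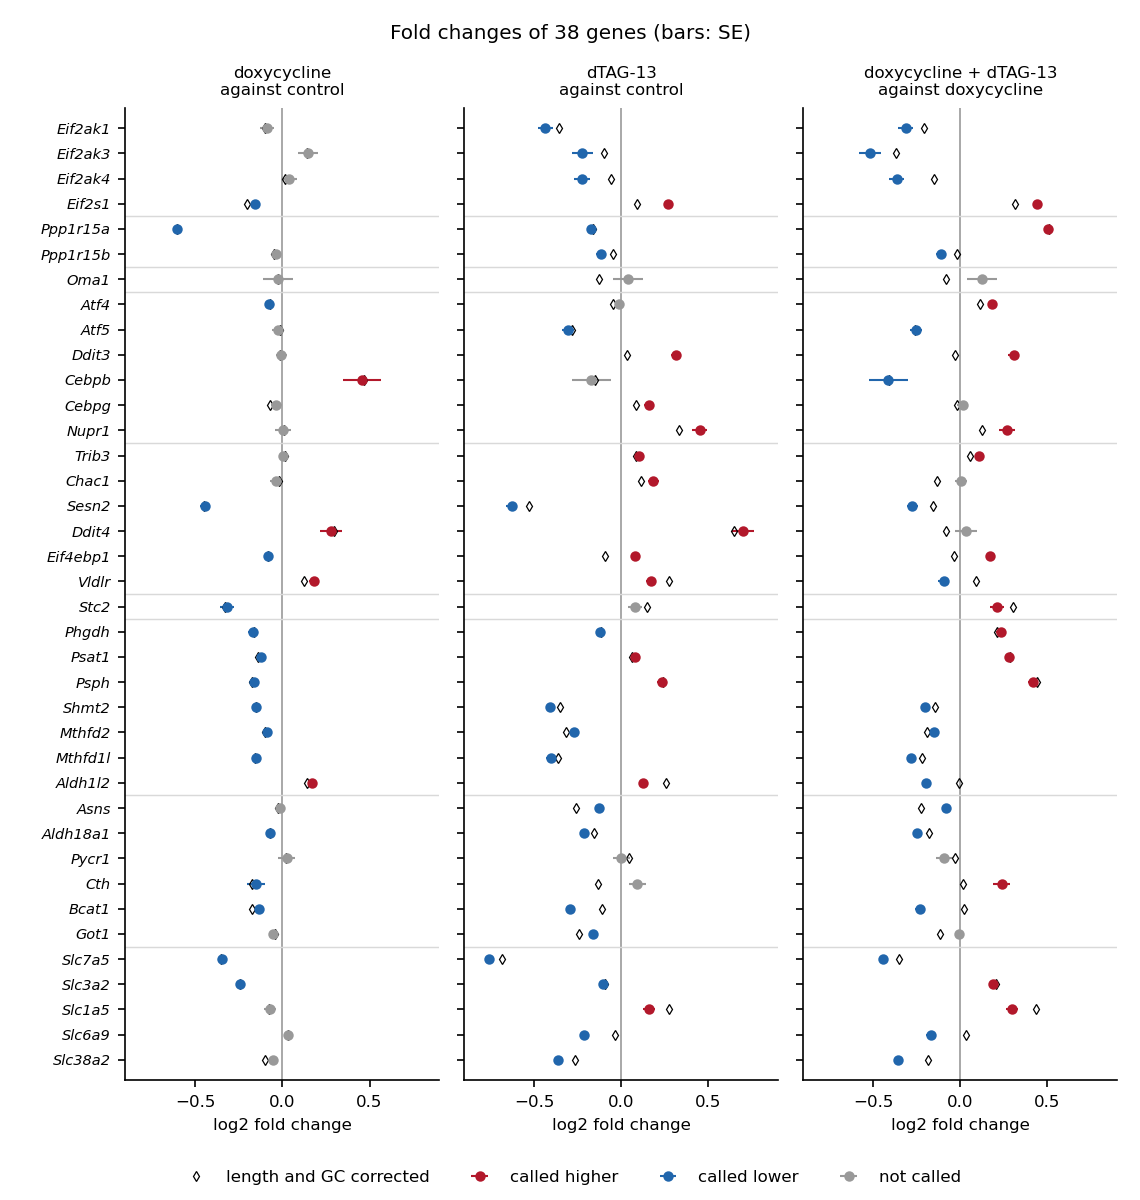
Filled points give the log2 fold change of each of the 38 genes averaging 1 CPM or more in 3 comparisons, with bars of 1 standard error from edgeR and colour for the call, and open diamonds give the value corrected for length and GC. Few points lie far from 0, among them Ppp1r15a at -0.60 with doxycycline and Slc7a5 at -0.76, Sesn2 at -0.63 and Ddit4 at 0.70 with dTAG-13.

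Among the kinases that start the response, Eif2ak1, the heme-regulated kinase that also relays mitochondrial stress, fell with dTAG-13. It stood at 55.9, 59.0 and 57.6 CPM in the control libraries and at 43.2, 42.0 and 42.4 CPM with dTAG-13. In the doxycycline libraries it stood at 52.0, 54.4 and 56.1 CPM, and at 42.8, 44.0 and 43.9 CPM with both compounds. The 6 libraries with dTAG-13 lay below the 6 without it. The log2 fold change was -0.43 ± 0.04 (SE) for dTAG-13 against control (adjusted p = 2.98e-12) and -0.31 ± 0.04 on adding dTAG-13 to doxycycline (adjusted p = 1.75e-08). Eif2ak1 overlaps the gene Aimp2, and how reads in a shared exon were counted is not given in the sources used here.

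Eif2ak3 encodes PERK, the kinase that senses unfolded proteins in the endoplasmic reticulum. Its libraries read 21.3, 21.4 and 21.9 CPM in control and 24.4, 23.0 and 24.1 CPM with doxycycline. They read 18.1, 19.9 and 17.2 CPM with dTAG-13 and 15.96, 16.8 and 17.1 CPM with both. The highest levels were thus in the doxycycline libraries and the lowest in those with both compounds, and neither of these groups overlapped control. Adding dTAG-13 to doxycycline gave the largest fall among the 38 genes in that comparison, -0.52 ± 0.06 (adjusted p = 2.01e-09). The fall with dTAG-13 alone was -0.22 ± 0.06 (adjusted p = 0.00161), but it was -0.10 after correction for length and GC (adjusted p = 0.15). Doxycycline alone gave 0.15 ± 0.06, which did not pass the test (adjusted p = 0.0522). Eif2ak4 encodes GCN2, the sensor of uncharged tRNA. It fell by 0.37 on adding dTAG-13 to doxycycline (adjusted p = 2.84e-09) and by 0.23 with dTAG-13 alone (adjusted p = 2.35e-05). After the correction these were -0.15 (adjusted p = 0.00331) and -0.06 (adjusted p = 0.251).

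Eif2s1 encodes eIF2alpha, the substrate of the kinases, and it moved the other way. It read 313, 319 and 314 CPM in control, 286, 282 and 280 CPM with doxycycline, 382, 379 and 378 CPM with dTAG-13, and 390, 372 and 390 CPM with both. All 6 libraries with dTAG-13 were above all 6 without it. The log2 change was 0.27 ± 0.02 with dTAG-13 (adjusted p = 2.36e-13) and 0.44 ± 0.02 on top of doxycycline (adjusted p = 6.22e-20), and doxycycline alone gave -0.16 ± 0.02 (adjusted p = 6.34e-07). After the length and GC correction the change with dTAG-13 alone was 0.091, still past the threshold.

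Ppp1r15a (GADD34) is the stress-induced subunit that brings a phosphatase to eIF2alpha and so ends the response. It showed the largest fall with doxycycline among the genes with at least 1 CPM. The control libraries read 385, 384 and 395 CPM and the doxycycline libraries 246, 264 and 256 CPM. With dTAG-13 alone the libraries read 346, 339 and 347 CPM, and with both compounds 362, 372 and 354 CPM. The doxycycline group thus stood apart below the other 3, with no overlap. The log2 change was -0.60 ± 0.02 for doxycycline against control (adjusted p = 2.74e-22) and 0.50 ± 0.02 on adding dTAG-13 to doxycycline (adjusted p = 1.16e-20). In cells without doxycycline, dTAG-13 gave -0.17 ± 0.02 (adjusted p = 6.55e-08), the opposite direction. The constitutive counterpart of this subunit, Ppp1r15b, ranged from 193 to 223 CPM over the 12 libraries with a log2 range of 0.15 between its group means. It was called lower with dTAG-13 (-0.12) and on top of doxycycline (-0.11), and neither call held after the length and GC correction (-0.05 and -0.02). Oma1, the mitochondrial protease that starts the relay to Eif2ak1, ranged from 10.2 to 13.7 CPM and was not called in any of the 5 contrasts.

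Atf4 mRNA itself moved little. The control libraries read 634, 623 and 617 CPM, and the doxycycline libraries 592 CPM each. They read 622, 623 and 616 CPM with dTAG-13 and 674, 669 and 669 CPM with both. The doxycycline libraries were the lowest and those with both compounds the highest, while control and dTAG-13 overlapped. Doxycycline gave -0.08 ± 0.02 (adjusted p = 0.00148), and adding dTAG-13 to doxycycline gave 0.18 ± 0.02 (adjusted p = 1.15e-10), or 0.11 after the length and GC correction, still called. Under library-total scaling the fall with doxycycline did not pass the test (-0.04). In dTAG-13 against control the direction depended on the processing: it was -0.01 as reported (adjusted p = 0.636), -0.05 after the length and GC correction and 0.08 with library totals, and the last 2 passed the test.

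The other transcription factors did not move as a block. Ddit3 (CHOP), a factor tied to cell death under prolonged stress, read 124, 124 and 115 CPM in control and 122, 119 and 122 CPM with doxycycline. With dTAG-13 it read 158, 145 and 150 CPM, and with both 152, 146 and 150 CPM. The 6 libraries with dTAG-13 were above the 6 without, and the log2 changes were 0.31 ± 0.03 (adjusted p = 1.4e-11) and 0.31 ± 0.03 (adjusted p = 3.29e-11). Ddit3 has 1713 bp of exon, and after the length and GC correction the changes were 0.03 (adjusted p = 0.341) and -0.03 (adjusted p = 0.408). Ddit3 also overlaps Mbd6 and Mars1. Atf5, an ATF4 target that acts in the mitochondrial stress response, fell with dTAG-13 from 85.4 to 90.8 CPM in control to 70.2 to 72.0 CPM (-0.31 ± 0.03, adjusted p = 4.15e-10). It fell by 0.25 on adding dTAG-13 to doxycycline (adjusted p = 4e-08), and Atf5 overlaps Nup62.

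Cebpb, a C/EBP factor that pairs with ATF4, was highest with doxycycline, at 245, 280 and 244 CPM, against 190, 167 and 204 CPM in control. It read 152, 156 and 191 CPM with dTAG-13 and 185, 209 and 184 CPM with both. Its standard errors were the largest of the 38 genes, and the doxycycline group still did not overlap the others. The change was 0.46 ± 0.11 with doxycycline (adjusted p = 0.0124) and -0.41 ± 0.11 when dTAG-13 was added (adjusted p = 0.0101). Cebpg, another ATF4 partner, was highest with dTAG-13 alone, at 142 to 148 CPM against 126 to 132 CPM in control (0.16 ± 0.03, adjusted p = 1.66e-05; 0.08 after the correction, still called). Nupr1, a small stress-induced chromatin regulator, also peaked there. It read 43.5, 44.4 and 46.2 CPM in control, 46.9, 42.2 and 45.4 CPM with doxycycline, 64.2, 58.8 and 60.0 CPM with dTAG-13, and 53.6, 53.5 and 54.6 CPM with both. Its rise was 0.45 ± 0.04 with dTAG-13 (adjusted p = 4.86e-12) and 0.27 ± 0.04 on top of doxycycline (adjusted p = 1.39e-06), the latter 0.12 after the correction and still called.

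**Figure D3:**
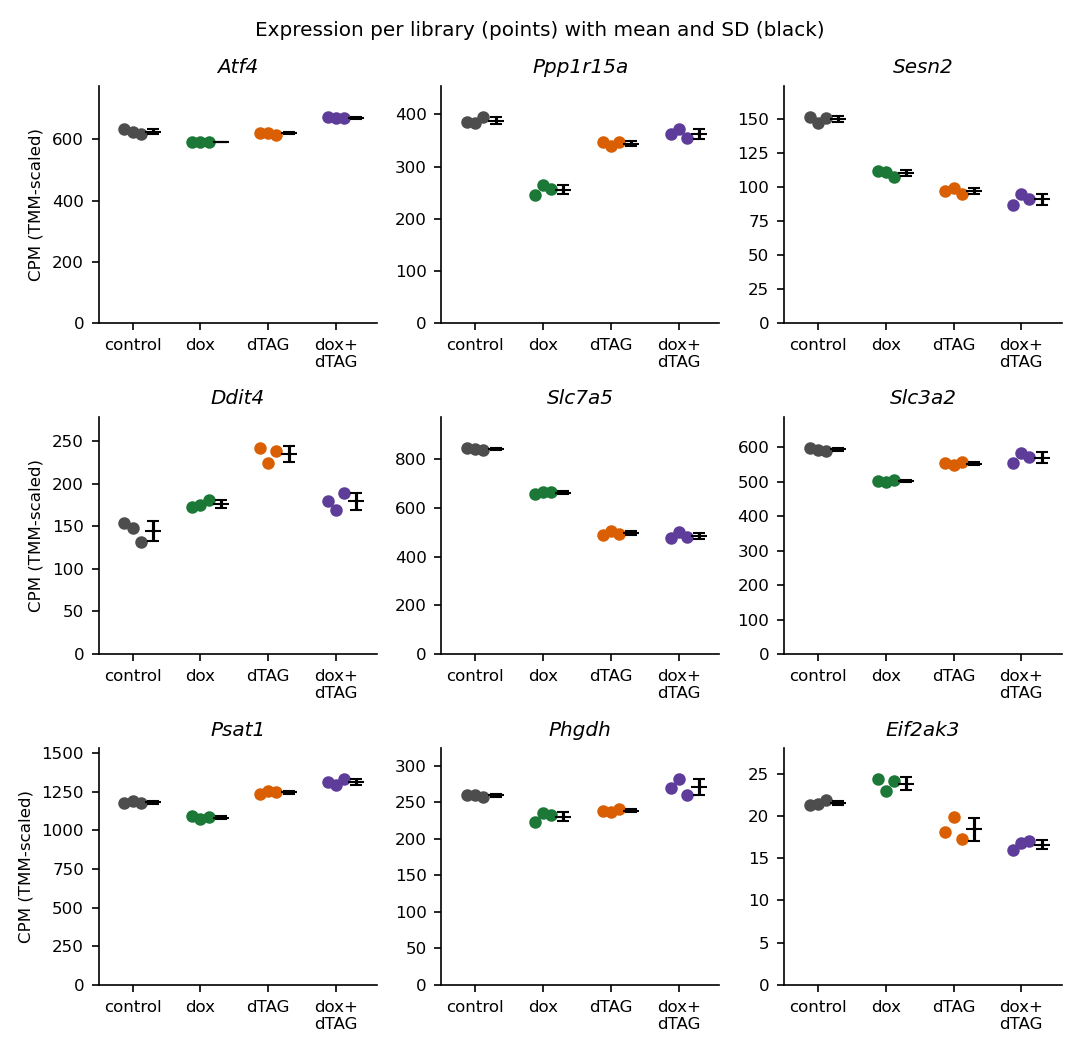
Each panel plots 1 gene, with TMM-scaled CPM on a linear axis starting at 0, 1 coloured point per library in the 4 groups, and the group mean and SD in black. Ppp1r15a is lowest with doxycycline alone (246 to 264 CPM), Slc7a5 is lower in every treated group than in control, and Ddit4 is highest with dTAG-13 alone (224 to 242 CPM).

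Among the effectors, Sesn2 encodes sestrin 2, a leucine sensor that restrains mTORC1. It read 152, 147 and 151 CPM in control, 112, 111 and 107 CPM with doxycycline, 96.8, 99.1 and 95.1 CPM with dTAG-13, and 87.0, 94.9 and 91.4 CPM with both. The 9 treated libraries were all below control. The changes were -0.44 ± 0.03 with doxycycline (adjusted p = 2.85e-15), -0.63 ± 0.03 with dTAG-13 (adjusted p = 7.12e-21) and -0.27 ± 0.03 on adding dTAG-13 to doxycycline (adjusted p = 8.81e-10), the last of these -0.15 after the correction and still called. Between both compounds and dTAG-13 the change of -0.09 ± 0.03 (adjusted p = 0.0433) was lost with the length and GC correction (-0.07, adjusted p = 0.0964) and without any 1 of 9 of the libraries.

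Ddit4 (REDD1) also restrains mTORC1, but it rose with each compound alone. It read 154, 148 and 131 CPM in control and 172, 174 and 181 CPM with doxycycline. With dTAG-13 alone it read 242, 224 and 238 CPM, the highest of the 4 groups, and with both 180, 169 and 189 CPM. The latter group overlapped doxycycline alone. The rise with dTAG-13 was 0.70 ± 0.06 (adjusted p = 6.15e-06) in control cells, and the difference in doxycycline-treated cells was 0.03 ± 0.06 (adjusted p = 0.695). In cells without dTAG-13, doxycycline gave 0.28 ± 0.06 (adjusted p = 0.00761). Among dTAG-13-treated cells doxycycline gave -0.385 (adjusted p = 0.00211), the opposite direction.

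The target genes Trib3 and Chac1, which both hold the ATF4 word printed above, changed less. Trib3 ranged from 505 to 515 CPM over the control and doxycycline libraries and from 541 to 559 CPM with dTAG-13, alone or on top of doxycycline. Its changes were 0.10 ± 0.02 with dTAG-13 (adjusted p = 5.43e-05) and 0.11 ± 0.02 on top of doxycycline (adjusted p = 1.84e-05; 0.06 after the correction, still called). Chac1, which degrades glutathione, read 113, 117 and 117 CPM in control, 108, 120 and 111 CPM with doxycycline, 136, 128 and 131 CPM with dTAG-13, and 113, 115 and 112 CPM with both. The dTAG-13 libraries were above all others (0.18 ± 0.03 against control, adjusted p = 5.47e-06; 0.11 after the correction, still called). On adding dTAG-13 to doxycycline the difference was 0.005 ± 0.0335 and was not called (adjusted p = 0.91), but after the length and GC correction it was called lower (-0.14, adjusted p = 0.000255). Vldlr, a lipoprotein receptor gene and ATF4 target, rose with doxycycline (0.18 ± 0.03, adjusted p = 2.68e-06) and with dTAG-13 (0.17 ± 0.03, adjusted p = 2.61e-06; 0.27 after the correction). On adding dTAG-13 to doxycycline it gave -0.10 as reported and 0.09 after the correction, each past the threshold. Eif4ebp1, a translation repressor under mTORC1 control, gave 0.08 with dTAG-13 as reported and -0.09 after the correction, again each past the threshold.

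The secreted factors were at the detection floor, apart from Stc2. Fgf21, a stress hormone, had 2, 3 and 3 reads in the control libraries, 7, 8 and 11 with doxycycline, 17, 22 and 16 with dTAG-13, and 6, 10 and 17 with both. Relative to library totals, the summed reads were 7.31 times higher with dTAG-13 than in control (95% exact interval 3.46 to 17.8) and 3.38 times higher with doxycycline (1.49 to 8.63). These intervals cover counting error only. Gdf15, another stress hormone, had 7, 14 and 3 reads in control, 2, 3 and 4 with doxycycline, 4, 10 and 10 with dTAG-13, and 11, 6 and 8 with both. Its ratio of both compounds to doxycycline was 3.2 (1.44 to 7.78), and this call was lost without doxycycline replicate 1 or 2 or without replicate 1 of both compounds (log2 values 1.26 to 1.89 over the libraries left out). The doxycycline call of Fgf21 was lost without control replicate 1 or 2 or without doxycycline replicate 3 (log2 values 1.44 to 1.84 over the libraries left out). Stc2, a glycoprotein of calcium and insulin-like growth factor control, read 69.9, 71.4 and 64.7 CPM in control and 55.6, 53.4 and 56.2 CPM with doxycycline. It fell by 0.32 ± 0.04 (adjusted p = 4.88e-08), with no overlap between these groups.

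The 7 enzymes of serine and one-carbon metabolism mostly fell with doxycycline: 6 were called lower and 1 higher, against 18.7% and 14.8% of all genes. With library totals alone, or without doxycycline replicate 1, Mthfd2 dropped out of these (-0.05 and -0.06), so that 5 were lower. Psat1, the aminotransferase step of serine synthesis, read 1177, 1190 and 1174 CPM in control and 1090, 1074 and 1083 CPM with doxycycline. With dTAG-13 it read 1236, 1254 and 1245 CPM, and with both 1312, 1294 and 1332 CPM. The 4 groups did not overlap, with doxycycline lowest and both compounds highest. The changes were -0.13 ± 0.02 with doxycycline (adjusted p = 4.38e-07), 0.08 ± 0.02 with dTAG-13 (adjusted p = 0.00027) and 0.28 ± 0.02 on adding dTAG-13 to doxycycline (adjusted p = 4.45e-17).

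Phgdh, which commits glycolytic carbon to serine, read 260, 261 and 258 CPM in control and 224, 236 and 233 CPM with doxycycline. It read 239, 237 and 241 CPM with dTAG-13 and 270, 282 and 261 CPM with both. It fell with each compound alone (-0.17 ± 0.03, adjusted p = 1.74e-06, and -0.12 ± 0.03, adjusted p = 0.00011) and rose on adding dTAG-13 to doxycycline (0.23 ± 0.03, adjusted p = 4.41e-10). The fall with dTAG-13 alone did not pass the test under library-total scaling (-0.03). Psph, the last step of serine synthesis, read 166 to 172 CPM with doxycycline and 217 to 229 CPM with both. That was a rise of 0.42 ± 0.03 (adjusted p = 7.84e-17), and dTAG-13 alone gave 0.23 ± 0.03 (adjusted p = 7.33e-10). Psph overlaps Cct6a, which had more reads.

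The other 4 enzymes of this group act on folate in mitochondria. Shmt2, which splits serine into glycine and a one-carbon unit in mitochondria, read 544, 542 and 560 CPM in control, 493, 495 and 494 CPM with doxycycline, 416, 409 and 417 CPM with dTAG-13, and 432, 442 and 414 CPM with both. Doxycycline lowered it by 0.15 ± 0.02 (adjusted p = 8.68e-07), and dTAG-13 gave -0.41 ± 0.02 (adjusted p = 4.04e-19). Mthfd1l, which releases formate from mitochondria, fell by 0.41 ± 0.02 with dTAG-13 (adjusted p = 3.32e-18), from 286 to 297 CPM in control to 216 to 223 CPM. Mthfd2 fell by 0.27 with dTAG-13. Aldh1l2, which oxidises formyl-folate in mitochondria, was the member of this group that rose with doxycycline, from 329 to 334 CPM in control to 371 to 374 CPM (0.17 ± 0.02, adjusted p = 3.4e-08). With both compounds it was back at 320 to 329 CPM, and its change on top of doxycycline (-0.19 as reported) was -0.01 after the length and GC correction.

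Of the 6 other amino acid enzymes, Asns, which makes asparagine and holds the ATF4 word before its start, read 476, 481 and 488 CPM in control. It read 481, 468 and 480 CPM with doxycycline, 434, 446 and 444 CPM with dTAG-13, and 448, 455 and 448 CPM with both. The control and doxycycline libraries overlapped, at a difference of -0.015 ± 0.0212 that did not pass the test (adjusted p = 0.645). The change with dTAG-13 was -0.13 ± 0.02 (adjusted p = 2.2e-06), it was -0.03 and not called under library-total scaling, and it was -0.26 and called after the length and GC correction. Aldh18a1, Bcat1 and Got1 fell with dTAG-13 by 0.16 to 0.29, with Bcat1 at -0.29 as reported and -0.11 after the correction. Pycr1, which completes proline synthesis, ranged from 41.01 to 48.3 CPM and was not called in any of the 5 contrasts.

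The amino acid transporters held the largest single fall. Slc7a5 (LAT1), which imports leucine and other large neutral amino acids, read 846, 841 and 838 CPM in control, 655, 665 and 665 CPM with doxycycline, 490, 506 and 494 CPM with dTAG-13, and 478, 500 and 480 CPM with both. Control was highest, doxycycline intermediate, and the 2 groups with dTAG-13 overlapped at the bottom. The changes were -0.35 ± 0.02 with doxycycline (adjusted p = 3.35e-17), -0.76 ± 0.02 with dTAG-13 (adjusted p = 2.11e-29) and -0.45 ± 0.02 on adding dTAG-13 to doxycycline (adjusted p = 2.04e-21).

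Slc3a2 (CD98) is the heavy chain that carries Slc7a5 to the membrane, and its pattern was not that of its partner. It read 598, 593 and 590 CPM in control and 503, 498 and 504 CPM with doxycycline. It read 554, 548 and 556 CPM with dTAG-13 and 555, 584 and 571 CPM with both. The doxycycline libraries were the lowest. The changes were -0.24 ± 0.02 with doxycycline (adjusted p = 2.02e-12) and -0.10 ± 0.02 with dTAG-13 (adjusted p = 3.7e-05; -0.01 and not called with library totals), and dTAG-13 on top of doxycycline gave a rise of 0.18 ± 0.02 (adjusted p = 3.7e-10). Slc38a2, a sodium-coupled transporter of small neutral amino acids, fell with dTAG-13 from 429 to 451 CPM in control to 334 to 350 CPM (-0.36 ± 0.02, adjusted p = 3.99e-17). On top of doxycycline its fall was also called (-0.35 ± 0.02, adjusted p = 9.39e-17; -0.18 after the correction, still called). Slc1a5, a glutamine transporter, was the transporter that rose with dTAG-13 (0.16 ± 0.03, adjusted p = 7.55e-05; 0.27 after the correction).

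**Figure D4:**
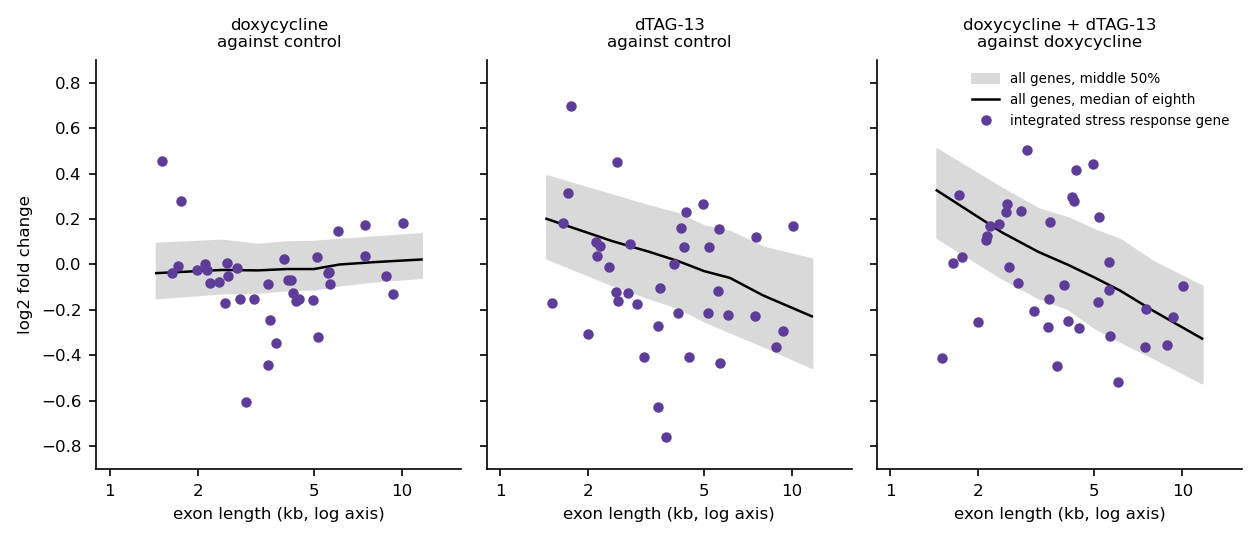
Each panel is 1 comparison, with exon length in kb on a log axis and the log2 fold change as reported on the vertical axis; points are the 38 genes, the line joins the medians of all genes by eighths of length and the band holds their middle 50%. In both dTAG-13 panels the line falls with length, from 0.201 to -0.228 and from 0.326 to -0.326, and Ddit3, with 1713 bp of exon, sits at 0.31 in each.

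The 2 dTAG-13 comparisons were then set against each other with an interaction term, which is the log2 effect of dTAG-13 with doxycycline minus its effect without. Here 23 of the 40 genes were called (15 higher, 8 lower), which is 57.5%, against 22.9% of all genes tested (13.2% higher, 9.64% lower). The median of the 40 was 0.075, against 0.005 over all genes, and the median absolute value was 0.149, against 0.13. Of the serine and one-carbon enzymes 6 of 7 were higher, and of the transporters 3 of 5 (Slc7a5, Slc3a2 and Slc1a5). Ppp1r15a had the highest value, 0.68 ± 0.04 (adjusted p = 1.37e-18). Phgdh gave 0.35 ± 0.04 (adjusted p = 1.78e-09), Sesn2 0.35 ± 0.04 (adjusted p = 8.9e-08), Slc3a2 0.29 ± 0.03 (adjusted p = 8.8e-10) and Atf4 0.19 ± 0.03 (adjusted p = 1.25e-06). Slc7a5 gave 0.32 (adjusted p = 8.54e-11). Ddit4 had the lowest value among the 38 genes, -0.67 ± 0.09 (adjusted p = 0.000668), followed by Aldh1l2 at -0.32 ± 0.03 (adjusted p = 2.49e-10) and Eif2ak3 at -0.29 ± 0.09 (adjusted p = 0.0125; -0.24 and not called without dTAG-13 replicate 2). At least 1.5-fold, 3 genes were called (Ppp1r15a higher, Ddit4 and Fgf21 lower), against 1.71% of all genes. Of these, Fgf21 averaged below 1 CPM and passed the filter on its higher libraries. The balance of directions rested on the scaling: with library totals the 40 gave 10 higher and 10 lower, and all genes went from 1705 higher and 1245 lower to 818 and 2424. Under that scaling the median of all genes moved to -0.066, and Mthfd2 and Mthfd1l were no longer called, which left 4 of the 7 serine and one-carbon enzymes higher. Slc1a5 (0.07), Got1 (0.08) and Eif4ebp1 (0.02) were also no longer called, which left Slc7a5 and Slc3a2 among the transporters. With the length and GC correction 24 of the 40 were called (17 higher, 7 lower), against 24.6% of genes with a corrected test.

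**Figure D5:**
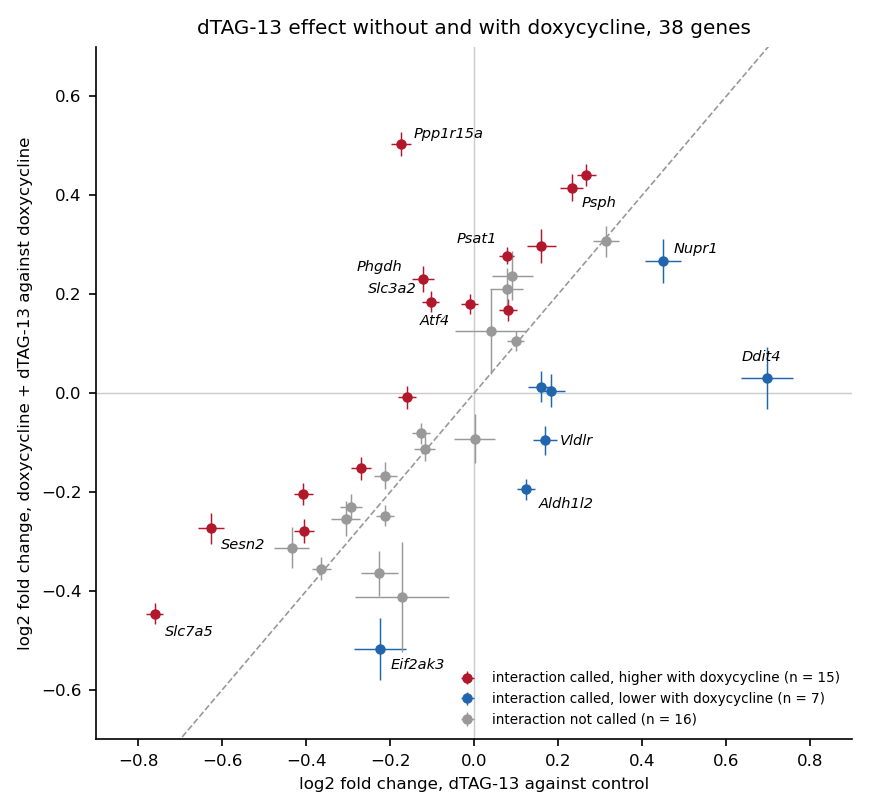
Each point is 1 of the 38 genes, with the log2 fold change of dTAG-13 against control on the horizontal axis and that of dTAG-13 added to doxycycline on the vertical axis; colour marks the interaction call and the diagonal marks equal effects. Of the 38 genes, 15 were called higher and 7 lower, with Ppp1r15a far above the diagonal and Ddit4 far below it.

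The group order of the 40 genes restates the same TMM-scaled group means, so it is not separate from the fold changes. It counts every gene, called or not. The lowest of the 4 group means fell in the doxycycline group for 16 of the 40 (40%), against 26.6% of all genes tested. The highest fell in control for 15 of the 40 (37.5%), against 27.3% of all genes.

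Related genes outside the 40 were counted from fixed lists, which were chosen with earlier results of these data known. The lists were not recounted with library totals alone, a scaling that moved the balance of directions among the 40. Of 18 further ATF4 target genes, 15 were called with doxycycline (1 higher, 14 lower; 83.3%, against 33.5% of all genes), with a median of -0.16. In the interaction 12 of the 18 were called (10 higher, 2 lower; 66.7%, against 22.9% of all genes), with a median of 0.10. Atf3, a stress-induced transcription factor, had the largest values of that list: -0.71 with doxycycline and 0.98 once dTAG-13 was added to it. Atf3 also rose with dTAG-13 alone (0.52), and its interaction of 0.46 was not called. With dTAG-13 against control 5 of the 18 rose and 9 fell (77.8%, against 62.1% of all genes). Slc7a1, an arginine and lysine transporter, gave -0.67 there, or -0.37 after the length and GC correction. Of 14 genes of the other unfolded protein response branches, 6 were called with doxycycline (2 higher, 4 lower; 42.9%, against 33.5%). With dTAG-13 against control 6 of the 14 were called (4 higher, 2 lower; 42.9%, against 62.1%). After the length and GC correction that count was 10 of 14, and the balance turned to 3 higher and 7 lower (58.1% of genes with a corrected test called). Hspa5, the main chaperone of the endoplasmic reticulum, gave -0.23 with doxycycline. Sdf2l1, another gene of that list, gave 0.44 with dTAG-13, or 0.29 after the correction. Of 8 genes for eIF2 and eIF2B subunits with Eif2ak2, 5 fell and 1 rose with doxycycline (against 33.5% of all genes called), the largest change being Eif2b3 at -0.21. In the list of mitochondrial relay genes 4 of 5 were called with doxycycline (2 higher, 2 lower, against 33.5% of all genes called), and its prohibitins Phb1 and Phb2 fell (-0.27 and -0.19). After the correction that list gave 1 higher and 3 lower. Among 10 tested genes of the cytosolic and remaining folate pathway, 4 fell with doxycycline (against 33.5% of all genes called), with Shmt1 at -0.26 and Tyms at -0.25. After the correction 8 of the 10 were called lower, against 38.7% of genes with a corrected test called in either direction.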

How the data were processed

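Poly(A) RNA libraries (NEBNext Ultra II) were sequenced from 4 treated cultures in technical triplicate. The deposited table gives raw read counts per Entrez gene, from reads aligned with Subread per the file headers. The programs bcl2fastq 2.17 and featureCounts and the build mm10 are named in the submitters' processing notes. The sources used here do not give the aligner version, annotation, strand setting or treatment of multi-mapping reads. Symbols came from RefSeq GRCm38.p6 (25275 of 27179 identifiers), exon lengths from GENCODE M21, and promoter windows from RefSeq.

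Counts were tested with edgeR 4.0.16 (limma 3.58.1, R 4.3.3): filterByExpr by group, TMM factors (0.9647 to 1.0349), and the quasi-likelihood test with 1 mean per group over all 12 libraries and Benjamini-Hochberg adjustment over 12910 genes. CPM values divide counts by the library total times its TMM factor. That total is the reads summed over the genes tested, also in the edgeR fits with library totals alone. The test script was checked on simulated counts. Alternatives were RLE factors, library totals alone, DESeq2 1.42.0, other filters, only the groups compared, a replicate block, leaving out each library, and offsets for length and GC (splines with 5 degrees of freedom, 11745 genes).

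Genes named with statistics were Atf4, Ddit3, Atf5, Asns, Chac1, Trib3, Psat1, the 3 kinases, the 8 largest called changes of at least 1 CPM per comparison, and up to 3 called genes per further list. Other members are named to account for them, or where a setting changed them. The members and lists were chosen with earlier results of these data known.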

Additional observations from a re-analysis of the deposited data

Results flagged for a closer look

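The effect of dTAG-13 differed between cells with and without doxycycline for 23 of the 40 genes by the interaction term of edgeR's quasi-likelihood test, against 22.9% of all genes tested. Each value below is the log2 effect of dTAG-13 with doxycycline minus its effect without. Higher values were found for Ppp1r15a (0.68), Sesn2 (0.35), Phgdh (0.35), Slc7a5 (0.32), Slc3a2 (0.29), Shmt2 (0.2), Psat1 (0.2), Atf4 (0.19), Psph (0.18), Eif2s1 (0.17), Got1 (0.15), Slc1a5 (0.14), Mthfd1l (0.13), Mthfd2 (0.12) and Eif4ebp1 (0.09). Lower values were found for Fgf21 (-2.21), Ddit4 (-0.67), Aldh1l2 (-0.32), Eif2ak3 (-0.29), Vldlr (-0.26), Nupr1 (-0.18), Chac1 (-0.18) and Cebpg (-0.15). The opposite directions were each called in Ppp1r15a (-0.17 without doxycycline, 0.50 with it), Phgdh (-0.12 and 0.23), Slc3a2 (-0.10 and 0.18), Vldlr (0.17 and -0.10) and Aldh1l2 (0.12 and -0.19). After the length and GC correction the effect with doxycycline was 0.091 and called in Vldlr, and -0.008 and not called in Aldh1l2. The effect without doxycycline in Aldh1l2 was 0.256 after that correction and still called. With library totals alone the effects without doxycycline were not called in Phgdh (-0.03) and Slc3a2 (-0.01). The interaction rests on 1 culture per group, and a difference between cultures cannot be told apart from it. Leaving out single libraries ended the call for Slc1a5 (7 of 12 libraries, values 0.11 to 0.13), Nupr1 (5, -0.18 to -0.16), Eif4ebp1 (5, 0.07 to 0.09), Fgf21 (control replicate 1 and doxycycline replicate 3, -2.01 and -1.98), Cebpg (dTAG-13 replicate 3, -0.12), Eif2ak3 (dTAG-13 replicate 2, -0.24) and Mthfd2 (doxycycline replicate 1, 0.10). After the length and GC correction the interactions of Cebpg (-0.10) and Eif4ebp1 (0.05) were not called.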

How the results depend on the processing

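The counts of called genes among the 40 stayed within 1.5 times of the reported ones under all alternatives run. Over the 12 fits that each left out 1 library they ranged from 19 to 24 with doxycycline, from 33 to 34 with dTAG-13, from 32 to 34 on adding dTAG-13 to doxycycline, from 12 to 16 for doxycycline among dTAG-13-treated cells, and from 19 to 24 in the interaction. The counts past 1.5-fold rest on few genes and moved, and the cause was not tested. With doxycycline the count of 2 became 1 with library totals alone, in DESeq2, with a filter of at least 1 CPM in 3 libraries and with only the groups compared, and ranged from 1 to 3 over the libraries left out (1 without control replicate 1 or 2, or doxycycline replicate 1 or 3). DESeq2 gave no adjusted p for Fgf21. On adding dTAG-13 to doxycycline the count of 1 became 0 with that filter and with only the groups compared, and ranged from 0 to 1 over the libraries left out (0 without doxycycline replicate 1 or 2, or replicate 1 of both compounds). Of 3940 values recomputed for single genes, 9 changed direction with a call on either side. Library totals turned Atf4 in dTAG-13 against control to 0.08. The length and GC correction turned Eif4ebp1 (-0.091) and Cth (-0.14) in that comparison, and Ddit3 (-0.03), Chac1 (-0.14), Eif4ebp1 (-0.038), Vldlr (0.091), Bcat1 (0.02) and Slc6a9 (0.035) on adding dTAG-13 to doxycycline. That correction ended 12 further calls and library totals ended 18. Replicate numbers did not pair the libraries: deviations of same-numbered libraries correlated at -0.021 to 0.08, and 3 of 12 libraries correlated best with their own number. With the replicate block, 22, 33, 33, 12 and 23 of the 40 were called in the 5 contrasts, and the block ended the calls of Sesn2 (-0.09), Vldlr (-0.08) and Slc6a9 (0.08) for doxycycline among dTAG-13-treated cells. Of all 12910 genes, 4172, 7938, 8205, 2490 and 2810 were called with the block. Without replicate 3 of both compounds, which stood furthest from the other libraries of its group, the 1.5-fold counts equalled the reported ones in the 5 contrasts. The 2 hormone genes are limited by depth, with at most 22 reads in a library.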
